A study of Physcomitrium patens with 5 samples.

Results

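Among 225 moss genes listed with a change in DNA methylation between drying or rewetting and the hydrated state, 4 were annotated as disease resistance proteins of a kind that acts as intracellular immune receptors, and their 9 listed regions are described here. The genes were chosen by their orthology definition in the authors' deposited table: Pp1s14_170V6, Pp1s18_7V6 and Pp1s95_7V6 are defined as disease resistance protein RPS2, and Pp1s508_5V6 as disease resistance protein RPM1. No other gene of the 225 carried either definition, though only 86 of them had a printed definition. Because a gene had to be listed as differentially methylated to be chosen, the ratios below are a description of the 4 genes and were not tested.

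The moss was Physcomitrium patens, grown on BCD medium, and the tissue its gametophores, which are the leafy shoots. Bisulfite sequencing, which reads unmethylated cytosines as thymines and leaves methylated ones as cytosines, was done on 5 libraries. The dehydrated states had 1 library for moderate and 1 for severe dehydration, the rehydrated states had 1 for partial and 1 for full rehydration, and the hydrated state had 1. One of the labels names the first of these states mild and another moderate dehydration. The labels give no strain, age, drying time or plant number, and all 4 comparisons share the 1 hydrated library. With 1 library per state no difference could be set against a spread between replicates, and the read depth behind each value is unknown.

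RPS2 and RPM1 are known from Arabidopsis, where they belong to the nucleotide-binding, leucine-rich-repeat receptors. Both watch over the host protein RIN4 inside the cell: RPS2 responds when a bacterial protease cuts RIN4, and RPM1 when bacterial effectors cause its modification. Activated receptors set off defence responses that often end in local cell death, so their activity is held under tight control. In plants, cytosine methylation is concentrated on transposable elements and repeats, and it can also lie within genes; whether any region below lies in a repeat was not analysed here.

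Pp1s14_170V6, Pp1s95_7V6 and Pp1s508_5V6 carried the ontology terms programmed cell death and adenyl ribonucleotide binding, the nucleotide-binding activity of such receptors, while Pp1s18_7V6 had no ontology term. Programmed cell death was given to 4 genes of the table in all, the other being the FLS2 gene described further on. Adenyl ribonucleotide binding was given to 27 genes, most of them kinases, helicases, dyneins and ATPases. Response to stress was given to Pp1s95_7V6 and Pp1s508_5V6 and to 3 other genes. Protein kinase activity was given to 1 of the 4 genes and to 12 others, and phosphorylation to 1 of the 4 and to 10 others. Signal transducer activity, pyrophosphatase activity and primary metabolic process were also each given to 1 of the 4. The identity of the receptors is not settled in 3 cases, since the definitions of Pp1s14_170V6, Pp1s95_7V6 and Pp1s508_5V6 end in a further orthology identifier. That identifier stands elsewhere in the table for MOB1, a kinase activator, in the case of Pp1s14_170V6, and for RPS2 in the case of Pp1s508_5V6. The one at Pp1s95_7V6 has no definition in the table. Pp1s18_7V6 was the only one of the 4 with RPS2 as its single definition.

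All listed regions of the receptor genes came from the rewetting states. Neither moderate dehydration, with 38 genes or 16.9% of the table, nor severe dehydration, with 30 genes or 13.3%, listed any of the 4. Partial rehydration listed all 4 genes, against 46 genes or 20.4% of the table. Full rehydration listed 3 of them, against 127 genes or 56.4% of the table, and Pp1s14_170V6 was the one not listed. A gene that is not listed in a comparison has no value there, so a smaller difference cannot be told apart from a stretch that was not measured.

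Each region has a log2 ratio of its methylation level in a dehydrated or rehydrated library to that in the hydrated library, so a negative value means lower than hydrated. Which library is the numerator is left unstated in the table, and this reading rests on 2 regions listed with identical ends in 2 comparisons; every use of higher and lower depends on it. In partial rehydration all 5 receptor regions were less methylated than in the hydrated library, as were 35 of all 40 listed regions, or 87.5%. Their share is thus read against a list in which nearly every region was lower. In full rehydration the receptor regions were divided, with 2 lower and 2 higher. Of all 132 regions listed there, 43.9% were lower and 56.1% higher. In partial rehydration the receptor regions were of middling size, with a median log2 ratio of 1.32 in absolute value, against 1.37 over all 40 regions. In full rehydration the median was 1.499 for the 4 receptor regions, against 1.58 over all 132. By size these 4 ranked 13th, 51st, 114th and 117th. The 13th was a region of Pp1s18_7V6 whose ratio is set by a small value that stands for 0. Every region in the table differed by at least 1 on the log2 scale, and the receptor regions nearest to that limit, 1 each at Pp1s18_7V6 and Pp1s508_5V6, both stood 1.04 from 0 on the log2 scale in the authors' deposited table.

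**Figure D1:**
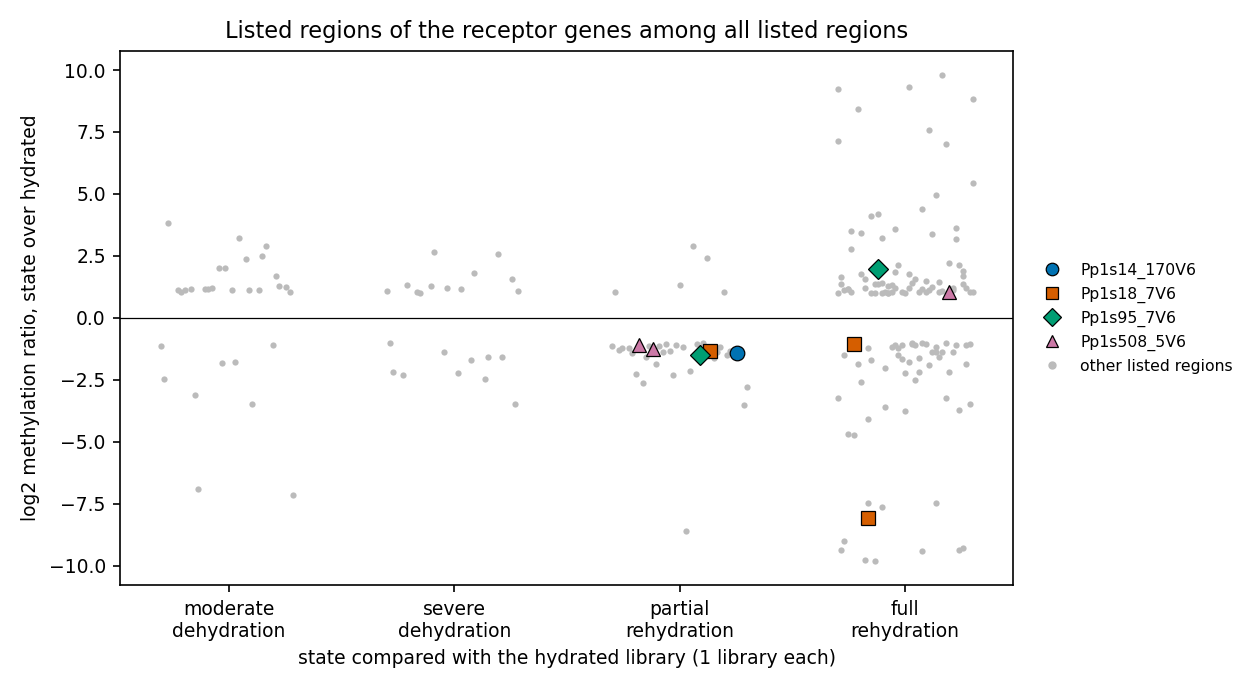
Log2 methylation ratio of every listed region, as state over hydrated, in the 4 comparisons (1 library per state). Coloured symbols are regions of the 4 receptor genes and grey points the other listed regions, spread sideways for legibility. No receptor region appears in either dehydration state, all 5 lie below 0 in partial rehydration, and 2 lie below and 2 above 0 in full rehydration. The square at -8.08 is the region of Pp1s18_7V6 read as a level of 0, whose height is set by the small value that stands for 0.

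Pp1s14_170V6, an RPS2-like gene, held the longest region of the whole table. It covered 868 bases of the gene body on scaffold 14, from 1087742 to 1088609, and the next longest of the 224 regions had 842 bases. The median length was 258 bases over the 9 receptor regions and 310.5 over all regions. In the authors' deposited table its log2 ratio in partial rehydration was -1.42, a methylation level 37.5% of that in the hydrated library. This ranked 16th by size among the 40 regions of that comparison. The ratio does not fix the levels. However, every ratio in the table was that of a pair of whole percents, once 0.001 (as a fraction) was taken to stand for 0. Here these could be 3% after partial rehydration and 8% in the hydrated library, or any multiple of this pair up to 36% and 96%. A level difference of -5 points and one of -60 points would therefore give the same entry.

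Pp1s18_7V6, the gene with RPS2 as its only definition, was lower in its upstream flank in both rewetting states. In partial rehydration, the log2 ratio in the authors' deposited table was -1.32 for the region from 37369 to 37597 on scaffold 18, or 40% of the hydrated level. In full rehydration, nearly the same stretch, from 37337 to 37597, was listed at 0, against 27% in the hydrated library. These levels follow from the ratio if 0.001 (as a fraction) stands for 0, and no other pair of whole percents gives it. No fold is given against a level of 0. The partial rehydration region lies wholly within the full rehydration region and makes up 87.7% of it. Both values are set against the same hydrated library, so they are not independent.

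A further region of the same flank lay 517 bases on, from 38115 to 38372, and was listed in full rehydration only, where the authors' deposited table gave it a log2 ratio of -1.04. Its levels were 16% after full rehydration and 33% in the hydrated library, 32% and 66%, or 48% and 99%. The flank is shared with another gene: all 3 regions are also listed for Pp1s18_5V6, which has no annotation. The first stretch lies in the body of Pp1s18_5V6 and the further one in its 2 kb downstream flank. The end of Pp1s18_5V6 thus lies between 37337 and 38372, and these values belong to both genes alike.

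Pp1s95_7V6, an RPS2-like gene, was lower in a stretch of its body in partial rehydration and higher in a partly overlapping stretch in full rehydration. The authors' deposited table gave a log2 ratio of -1.52 for partial rehydration from 12817 to 13055 on scaffold 95, the lowest of the receptor regions of that state and 13th by size of all 40. For full rehydration, the authors' deposited table gave a log2 ratio of 1.95 from 12376 to 12922, or 3.88 times the hydrated level. The second region is 547 bases long. The regions share 106 bases, which are 44.4% of the partial rehydration region and 19.4% of the full rehydration region, so the opposite signs refer mostly to different bases.

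The levels at Pp1s95_7V6 are known only as pairs of whole percents that give its ratios. For the partial rehydration region they were 15% after partial rehydration and 43% in the hydrated library, or 30% and 86%. For the full rehydration region they were 31% after full rehydration and 8% in the hydrated library, 62% and 16%, or 93% and 24%. Under these pairs the hydrated level was 43% or 86% over the first region and at most 24% over the second. The low value over the second is largely set by its listing, since a region 3.88 times as methylated as in the hydrated library cannot have had a hydrated level above 25.8%. The regions also overlap, and the coverage behind each level is unknown.

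Pp1s508_5V6, the RPM1-like gene, showed the same order of signs in its downstream flank. In partial rehydration the authors' deposited table listed a region from 8173 to 8558 on scaffold 508, at a log2 ratio of -1.26. A second region nested within it, from 8233 to 8481, stood at -1.11 in the authors' deposited table. These overlap by 249 bases and are not separate observations. In full rehydration, the authors' deposited table gave 1.04 as the log2 ratio from 7943 to 8173, or 2.05 times the hydrated level. It meets the outer partial rehydration region in 1 base only, so the higher and lower values stand next to each other and not on top of each other.

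For the nested region, the levels were 19% after partial rehydration and 41% in the hydrated library, or 38% and 82%. For the adjacent region they were 39% after full rehydration and 19% in the hydrated library, or 78% and 38%. A ratio of 2.05 allows no hydrated level above 48.7% in the adjacent region, so its hydrated level is limited by the listing too. For the outer region 8 pairs are possible, from 5% and 12% to 40% and 96%, and its hydrated level cannot be placed. All 3 regions also lie in the body of Pp1s508_6V6, a gene without annotation, and cannot be assigned to the receptor gene alone.

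**Figure D2:**
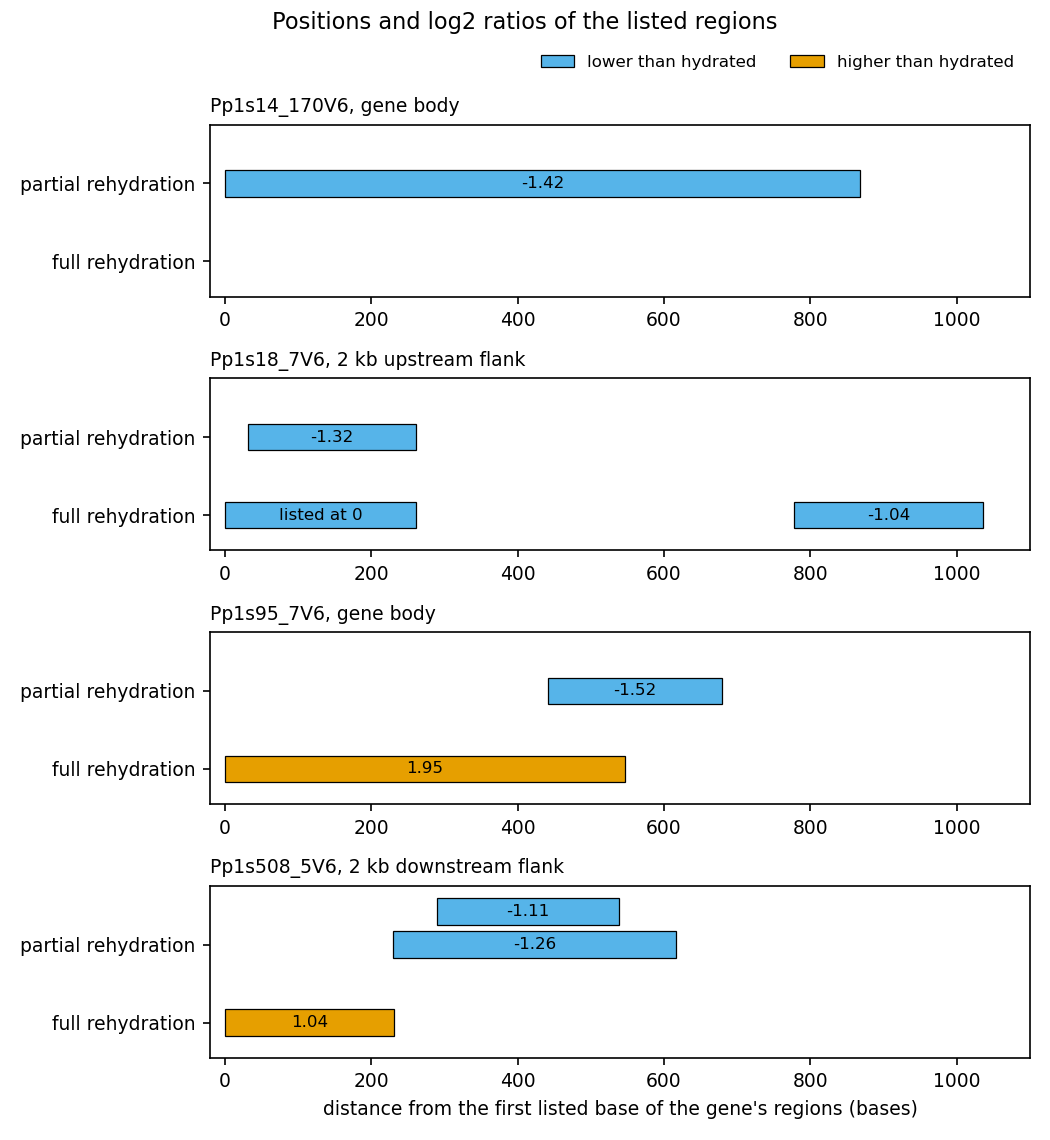
Positions of the 9 receptor regions, 1 panel per gene, as distance in bases from the first listed base, with partial rehydration above full rehydration. Boxes are drawn to length and carry the log2 ratio to the hydrated library. The exception is 1 box of Pp1s18_7V6, marked listed at 0, a level read from its ratio. Blue is lower and orange higher. At Pp1s18_7V6 the partial rehydration region lies on 1 of the full rehydration regions, whereas the lower and higher regions of Pp1s95_7V6 share 106 bases and those of Pp1s508_5V6 share 1 base.

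**Figure D3:**
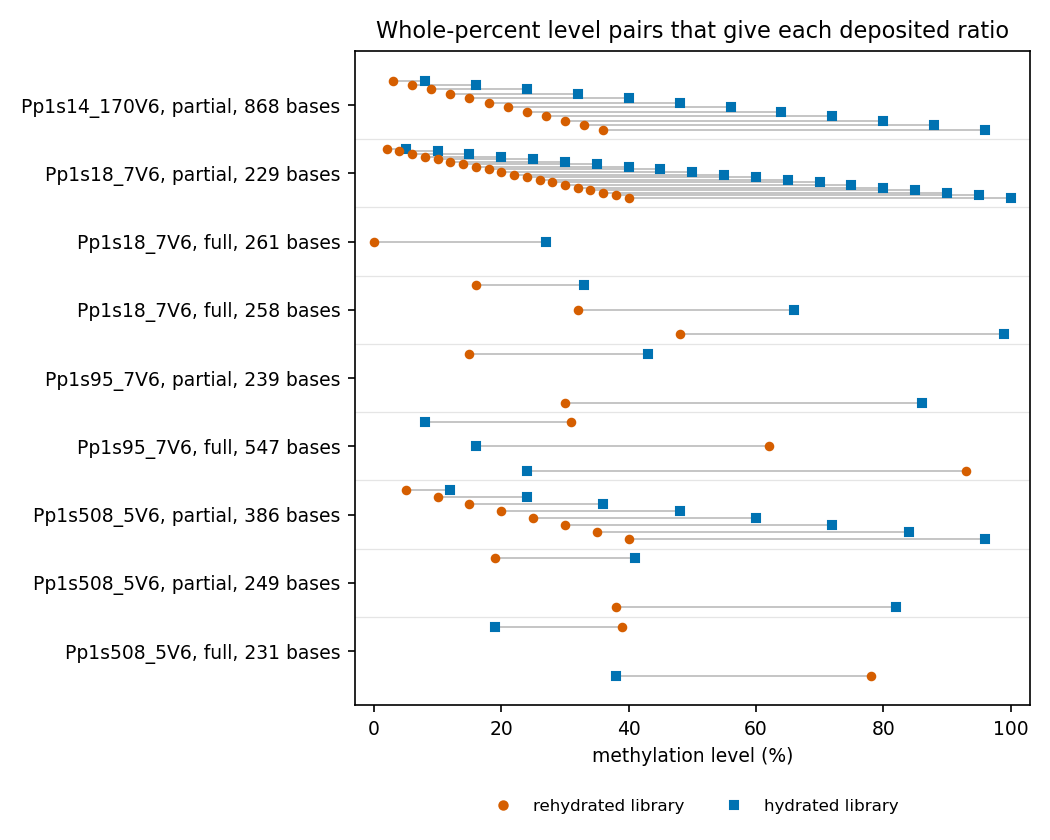
Pairs of whole-percent methylation levels that give each deposited ratio, with the rehydrated library as circles and the hydrated library as squares; each line is 1 possible pair. A single pair remains for 1 region of Pp1s18_7V6 (0 after full rehydration, 27% hydrated), while 2 to 20 pairs remain for the other 8 regions.

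Of the 4 genes, only 2 were listed in their own bodies, and most receptor regions in a gene body lay in that of a neighbouring gene. Pp1s14_170V6 and Pp1s95_7V6 were listed in their own bodies, Pp1s18_7V6 upstream and Pp1s508_5V6 downstream. Counting every gene a region is listed for, 8 of the 9 receptor regions lay in some gene body, against 44 of all 224 regions, or 19.6%. In partial rehydration these were 5 of 5 receptor regions, against 12 of all 40. In full rehydration they were 3 of 4, against 25 of all 132. A second gene was listed for 6 of the 9 receptor regions, against 38 of all 224, or 17%. A region listed for 2 genes can be counted in a body through either, so the body shares above compare unlike sets. Regions of 1 gene overlap, so these counts rest on 5 separate stretches of the genome, of which 2 held both a lower and a higher region.

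Other listed genes on the same scaffolds were few. The unannotated genes Pp1s18_5V6 and Pp1s508_6V6 shared every region of their receptor neighbour. On scaffold 14, the listed region of Pp1s14_31V6 lay 913995 bases from that of Pp1s14_170V6. Pp1s14_31V6 is the gene for ribosomal protein S9e, part of the small ribosomal subunit. The authors' deposited table put its upstream flank at -1.78 on the log2 scale in full rehydration. Scaffold 95 held no listed gene other than Pp1s95_7V6.

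Beyond the receptors, 2 genes of the table matched a list of 40 name patterns for plant immunity, which covered further resistance proteins, RIN4, the EDS1 and SGT1 partners, WRKY factors, calcium and MAP kinase signalling and defence proteins. No gene matched 34 of the patterns. The patterns were searched in orthology definitions and ontology terms, and only 127 of the 225 genes had either. A missing match therefore does not show that such a gene is missing from the list. PBS1 (Pp1s43_35V6) is a kinase that in Arabidopsis is guarded by another receptor of this family. The authors' deposited table put its upstream flank, on scaffold 43 from 250304 to 250509, at 1.09 on the log2 scale. That ratio stands for 87% after full rehydration, against 41% in the hydrated library. FLS2 (Pp1s783_2V6) is known from Arabidopsis as the cell-surface receptor for bacterial flagellin. The authors' deposited table put a region of its body, from 60289 to 60523 on scaffold 783, at -1.23 on the log2 scale, which stands for 35% after full rehydration, against 82% in the hydrated library. Both were listed in full rehydration only. Over receptors and these genes together, 4 genes were lower and 0 higher in partial rehydration, all of them receptors, in a list where 89.1% of genes had a lower and 10.9% a higher region. In full rehydration 2 were lower and 3 higher, in a list where 44.1% of genes had a lower and 56.7% a higher region.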

How the data were processed

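Bisulfite sequencing gave 1 library per state. Per the labels' protocols, DNA was sonicated, ligated to methylated adaptors, converted with a bisulfite kit and amplified by PCR. The file used is a table of the authors' own comparisons. Per the file headers, each entry holds a gene part (2 kb upstream, body or 2 kb downstream), a start, an end, a methylation ratio and a direction. Values in the authors' deposited table are log2 ratios. What tools, thresholds, genome build and cytosine context were used, and at what coverage, is not given in the sources used here, so precision is unknown. Coordinates are as in the table, and lengths count both ends. RefSeq's gene table (ASM5946719v1) matched 0 of 225 identifiers. No genome was used here, and no sequences are shown.

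Entries were parsed with Python 3.11.15 and drawn with matplotlib 3.10.9. Each ratio equalled that of 2 whole percents within a relative tolerance of 1e-09, where 0.001 (as a fraction) stood for 0. All such pairs were listed. A run on simulated whole percents tested only that the listing finds the true pair. It could not test whether the real levels were whole percents or whether 0.001 stood for 0. Regions on scaffolds 84 and 439 had identical ends in 2 comparisons. As denominator, the hydrated library could give both ratios with 2 and 6 whole-percent levels, and as numerator with 0, so a positive ratio is read as higher than hydrated. A region listed for several genes was counted once per comparison, giving 224 regions from 267 entries. No test was made. The named genes are the 4 receptors, every listed gene on their scaffolds and the genes matching the immune patterns. The members and lists were chosen with earlier results of these data known.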

Additional observations from a re-analysis of the deposited data

Results flagged for a closer look

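At 2 of the 3 receptor genes listed in both rewetting states, the partial and full rehydration regions had opposite signs against the shared hydrated library. These regions lay mostly on different bases, and with 1 library per state the difference was not tested. Of all listed regions, 87.5% were lower in partial rehydration and 56.1% higher in full rehydration. The share with opposite signs over all genes listed in both rewetting states is not given here. The 2 of 3 can therefore not be read as particular to the receptors. In the authors' deposited table, Pp1s95_7V6 had log2 ratios of -1.52 in partial rehydration and 1.95 in full rehydration, over regions that share 106 bases. For Pp1s508_5V6 the log2 ratios in the authors' deposited table were -1.26 and -1.11 in partial rehydration and 1.04 in full rehydration. The lower and higher regions share at most 1 base, and all also lie in the body of Pp1s508_6V6.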

How the results depend on the processing

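Of the receptor regions, 7 were lower and 2 higher, and of all 224 regions 50% were lower; 5 of the 7 came from partial rehydration, where 87.5% of all regions were lower. These counts stayed at 7 and 2 over distinct regions, were 5 and 2 with overlapping regions merged, where a stretch with both signs counts in each, and 8 and 3 over every gene matching the immune patterns. With a log2 ratio of at least 1.5 in size they were 2 and 1. Only Pp1s18_7V6 had a definition with no further orthology identifier, and with it alone they were 3 and 0. The median size of the log2 ratio over all 9 regions was 1.32, and 1.29 without the region with a level of 0. Other listed genes on the receptor scaffolds numbered 3, or 2 with a listed region within 100000 bases of a receptor region. No paired analysis was possible because each state had 1 library. The depth is unknown, so no interval can be given, and a difference between libraries cannot be told apart from one between states.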
